A study of Rattus norvegicus with 8 samples.

Results

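The genes described here mark T cells and cytotoxic lymphocytes, and they were read in RNA from the spleen, small intestine and liver of rats given lavender oil (LO) or its diluent. Members were chosen by name as 10 genes, each matched to the array through its RefSeq transcript identifier. They are the T cell receptor complex gene *Cd3d*, the coreceptors *Cd4*, *Cd8a* and *Cd8b*, the adhesion and costimulation genes *Cd2*, *Cd5* and *Cd28*, the phosphatase *Ptprc*, and the cytotoxic effectors *Gzmb* and *Prf1*. Of the 10 members 9 had a probe under that identifier, each on 1 of the 43379 features of the array, and no probe was matched to *Ptprc*. The *Cd28* probe did not pass the filter on dim probes, so 8 members were among the 30620 probes tested.

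T cells recognise peptide held by MHC molecules through a receptor that signals through the CD3 chains. The coreceptor CD4 binds MHC class II and marks helper T cells, and in rats it is also carried by macrophages, whereas the CD8 alpha and beta chains bind MHC class I and mark cytotoxic T cells. Cytotoxic T cells and natural killer (NK) cells kill by releasing perforin, which opens a way into the target cell, together with granzymes, the proteases that start its death. The spleen holds organised T cell zones, the intestinal epithelium holds many intraepithelial T cells with the CD8 alpha chain, and the liver sinusoids hold T and NK cells.

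The study asked how daily oral LO altered gene expression in the 3 tissues. 12 male rats were used at 7 weeks of age, with 6 in each group. The LO group received 5 mg/kg of LO in 10% ethanol into the stomach once a day for 13 days, the control group received 10% ethanol alone, and dissection was at 14 days. RNA of the rats of a group was pooled by tissue, giving a control pool and an LO pool for spleen, for small intestine and for each of 2 sets of liver named liver group 1 and liver group 2. Each control and LO pair was hybridised to 2 two-colour Agilent arrays, with LO in Cy5 on the first and in Cy3 on the second, so 8 arrays held 8 pooled samples. The labels give the strain as Wistar in one field and F334 in another, and what separates the liver groups was not given in the sources used here.

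Both arrays of a pair held the same pooled RNA, so a pair was counted as 1 replicate, and every p-value below lacks the spread between animals. On each array, 44.3 to 64.7% of features had both channels well above background, and the liver arrays had the lowest shares. The marker lists differed between the tissues. All 10 hepatocyte markers were higher in liver than in spleen, all 7 enterocyte markers tested were higher in the small intestine than in spleen, and the 5 B cell markers tested were all lower in liver than in spleen. Against spleen, 5 enterocyte markers were also higher in liver and 3 hepatocyte markers higher in the small intestine. In liver against small intestine, 9 hepatocyte markers were called higher and 6 enterocyte markers lower. Shares of all probes called are given with the members below. By the scanner files each tissue lay on a slide of its own, and slide and tissue cannot be told apart.

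Levels are given as log2 of the scanner-processed signal after between-array normalization, averaged over the arrays of a pair. A step of 1 is a factor of 2 for the same probe. Levels of different probes were not set against each other, since probes differ in how strongly they bind. Differences between tissues were tested with limma over all 8 pooled samples with the pair as a random block, and a gene was called at an adjusted p below 0.05. That fit has 4 residual degrees of freedom, of which 1 lies between pairs. It is the difference between the liver groups, since spleen and small intestine are 1 pair each and are assumed to vary like liver. A stricter fit with the control and LO samples of a pair averaged is therefore given where it ended the call of a gene named here, and as counts for the gene lists.

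All 8 members tested were lower in liver than in spleen, where 27.3% of all probes tested were called lower and 22.1% higher. In the small intestine 7 members were lower than in spleen, against 14.9% of probes lower and 13.0% higher, and *Gzmb* alone was called higher. Between liver and small intestine only *Gzmb* was called, lower in liver, where 21.1% of probes were lower and 19.4% higher. Over the members the median difference from spleen was -3.15 in liver and -3.62 in the small intestine on the log2 scale, beside -0.10 and -0.12 over all probes tested. In whole tissue, fewer cells of a type and less RNA per cell cannot be told apart. With the pairs averaged, 7 members were called lower in liver than in spleen (17.8% of probes lower, 13.5% higher), and 6 were called lower and none higher in the small intestine than in spleen (4.40% lower, 5.78% higher). *Gzmb* kept its call between liver and small intestine in that fit, as the only member (10.8% lower, 9.46% higher).

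**Figure D1:**
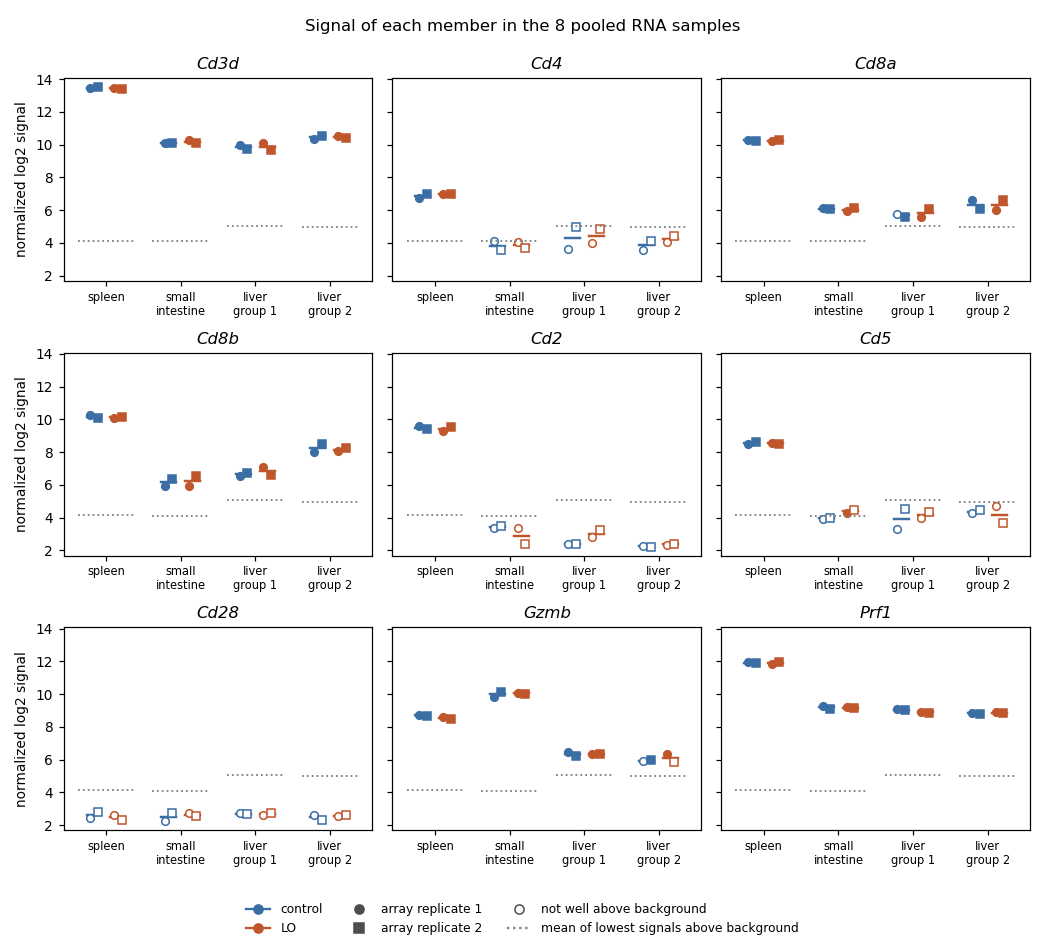
Log2 signal of the 9 members with a probe in each of the 8 pooled samples, with 1 panel for each gene, a point for each array, a bar for the mean of a sample, blue for control and orange for LO, open points where the probe was not well above background, and a dotted line at the mean of the lowest signals above background. The spleen samples of *Cd3d* lie at 13.48 and 13.43, and for *Gzmb* the small intestine samples lie highest, at 9.98 and 10.04. Nearly all points of *Cd2*, *Cd4* and *Cd5* outside the spleen are open.

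*Cd3d* (NM_013169) encodes the delta chain of CD3, which the T cell receptor needs to reach the cell surface and to signal. The spleen samples stood at a log2 level of 13.48 in the control and 13.43 with LO. The small intestine samples stood at 10.12 and 10.18, and the liver samples at 9.86 and 9.87 in group 1 and 10.44 and 10.46 in group 2. Spleen lay above every other sample, while the small intestine samples lay between those of the liver groups. *Cd3d* was 9.83-fold lower in liver than in spleen (log2 difference -3.30, SE 0.29, adjusted p = 0.000271, limma) and 9.88-fold lower in the small intestine (-3.30, SE 0.33, adjusted p = 0.000959). Liver and small intestine differed by 0.01 on the log2 scale, with a 95% interval from -0.69 to 0.70, so a difference of up to about that size in either direction was not detectable here.

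The promoter of *Cd3d* is shown because this gene stands for the T cell receptor complex, those of *Gzmb* and *Prf1* because these effectors took different orders over the tissues. Each sequence is the RefSeq reference of build GRCr8 from 250 bases before to 50 bases after the annotated start, on the strand of the gene, and does not come from the rats studied. Capitals mark 4 short motifs found on either strand: TGTGGT, the core letters that RUNX factors bind; AGGAAG, a core of ETS factors; CAGCTG, an E-box; and TATAAA, the TATA box. On the opposite strand the RUNX letters read ACCACA and the ETS letters CTTCCT. The windows lie at chr8:54185269-54185568 on the plus strand for *Cd3d*, chr15:34462420-34462719 on the minus strand for *Gzmb* and chr20:29788790-29789089 on the plus strand for *Prf1*.
*Cd3d*: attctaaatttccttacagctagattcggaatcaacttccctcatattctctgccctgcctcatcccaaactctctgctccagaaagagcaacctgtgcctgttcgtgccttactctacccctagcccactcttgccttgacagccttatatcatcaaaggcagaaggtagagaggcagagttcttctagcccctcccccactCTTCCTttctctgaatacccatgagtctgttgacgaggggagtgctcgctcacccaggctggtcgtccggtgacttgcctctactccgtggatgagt
*Gzmb*: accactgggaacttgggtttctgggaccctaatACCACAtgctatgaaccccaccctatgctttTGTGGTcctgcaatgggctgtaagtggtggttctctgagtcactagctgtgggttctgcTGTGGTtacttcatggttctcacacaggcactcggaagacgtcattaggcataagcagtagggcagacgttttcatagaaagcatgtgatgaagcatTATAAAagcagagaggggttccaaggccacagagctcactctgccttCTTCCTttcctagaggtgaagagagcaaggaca
*Prf1*: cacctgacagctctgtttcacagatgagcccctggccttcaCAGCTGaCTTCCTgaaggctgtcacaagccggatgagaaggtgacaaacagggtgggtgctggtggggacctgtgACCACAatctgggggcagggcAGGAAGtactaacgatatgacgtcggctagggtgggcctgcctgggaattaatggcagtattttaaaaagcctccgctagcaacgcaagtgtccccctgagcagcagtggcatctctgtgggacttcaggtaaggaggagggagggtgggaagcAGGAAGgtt
The *Cd3d* window held 1 ETS motif, 47 bases before the start. The *Gzmb* window held 3 RUNX motifs, 1 ETS motif and a TATA box 30 bases before the start. The *Prf1* window held 3 ETS motifs, 1 RUNX motif and 1 E-box. A promoter was found for 8 of the 10 members, all except *Cd4* and *Cd8b*. Among the 8, the RUNX letters were in 4, the ETS letters in 5, the E-box in 3 and the TATA box in 1. Of all 33469 rat promoters of that length, 17.3% held the RUNX letters, 34.5% the ETS letters, 15.1% the E-box and 14.2% the TATA box. These matches describe letters in the windows and carry no measurement of binding.

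*Cd8a* (NM_031538) encodes the alpha chain of CD8. Its spleen samples stood at 10.26 in the control and 10.24 with LO, and its small intestine samples at 6.08 and 6.04. The liver samples stood at 5.68 and 5.83 in group 1 and at 6.34 and 6.32 in group 2. In liver 7 of 8 channels were well above background. The spleen samples stood clear of the rest, and the small intestine samples again fell between the liver groups. *Cd8a* was 18.5-fold lower in liver (log2 -4.21, SE 0.31, adjusted p = 0.000147) and 18.2-fold lower in the small intestine (-4.19, SE 0.36, adjusted p = 0.000555) than in spleen. Between liver and small intestine the log2 difference was -0.02, with a 95% interval from -0.77 to 0.74.

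*Cd8b* (NM_031539) encodes the beta chain, which pairs with the alpha chain on conventional cytotoxic T cells. Its levels in spleen were 10.16 in the control and 10.13 with LO, and in the small intestine 6.15 and 6.25. The liver samples stood at 6.64 and 6.85 in group 1 and at 8.25 and 8.15 in group 2. The pooled samples of no tissue overlapped those of another for this probe, although single channels of small intestine and liver group 1 touched, and the liver groups were further apart than for any other member. *Cd8b* was 6.36-fold lower in liver than in spleen (log2 -2.67, SE 0.58, adjusted p = 0.0106) and 15.4-fold lower in the small intestine (-3.94, SE 0.68, adjusted p = 0.00734). Both calls were lost with the pairs averaged, at adjusted p of 0.0600 and 0.0677. Liver stood 1.28 above the small intestine on the log2 scale (95% interval -0.14 to 2.69, adjusted p = 0.131) and was not called.

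The *Cd4* (NM_012705) probe was dim outside the spleen. It stood at 6.87 and 6.99 in spleen, at 3.83 and 3.88 in the small intestine, and at 4.30, 4.43, 3.84 and 4.23 in liver, and it was not well above background in any channel of the small intestine or liver. Against the lowest signal counted as above background there, *Cd4* was at least 3.71-fold lower in liver (adjusted p = 0.000958) and at least 6.27-fold lower in the small intestine (adjusted p = 0.00209) than in spleen. The p-values beside bounds, here and below, are those of limma for the signals as read, with log2 differences of -2.73 and -3.08 for *Cd4*. The bounds themselves were not tested. How the 2 dim tissues compare was not measured by this probe.

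*Cd2* (NM_012830), an adhesion receptor of T and NK cells, and *Cd5* (NM_019295), an inhibitory receptor of T cells, were likewise bright in spleen only. *Cd2* stood at 9.48 in the control spleen and 9.43 with LO, and at between 2.26 and 3.43 in the other tissues, where no channel was well above background. It was at least 21.7-fold lower in liver (adjusted p = 0.00101) and at least 40.9-fold lower in the small intestine (adjusted p = 0.00502). These sizes are bounds, since the background and not the gene set the lower value.

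*Cd5* stood at 8.54 in the control spleen and 8.53 with LO, and at 3.93 to 4.37 in the other 6 samples. In liver no channel measured it, and it was at least 11.5-fold lower than in spleen (adjusted p = 0.000652). In the small intestine 1 of 4 channels was well above background, and the difference as read was 20.7-fold lower (log2 -4.37, SE 0.55, adjusted p = 0.00227). Background largely set that fold. The mean log2 level of *Cd5* was 4.16 in the small intestine and 4.16 in liver, so its folds do not rank these tissues. *Cd28* (NM_013121), the costimulatory receptor for CD80 and CD86, was not well above background in any of the 16 channels, so the array gave no comparison for it in any tissue.

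*Prf1* (NM_017330) encodes perforin, the pore-forming protein of cytotoxic granules. It stood at 11.92 in the control spleen and 11.89 with LO, and at 9.19 and 9.18 in the small intestine. The liver samples stood at 9.04 and 8.89 in group 1 and at 8.81 and 8.86 in group 2. Every sample followed the order spleen, small intestine, liver. *Prf1* was 8.03-fold lower in liver (SE 0.23 on the log2 scale, adjusted p = 0.000176) and 6.60-fold lower in the small intestine (-2.72, SE 0.27, adjusted p = 0.000911) than in spleen. The last step of that order, -0.28 from small intestine to liver, had a 95% interval from -0.85 to 0.28 and was not called.

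*Gzmb* (NM_138517) encodes granzyme B, the granzyme that cleaves caspases in the target cell. Its small intestine samples stood at 9.98 in the control and 10.04 with LO, above its spleen samples at 8.70 and 8.53. The liver samples stood at 6.32 and 6.36 in group 1 and at 5.93 and 6.10 in group 2. In liver 6 of 8 channels were well above background. No pooled sample overlapped those of another tissue, and the order differed from that of the other members in placing the small intestine first. *Gzmb* was 14.2-fold lower in liver than in the small intestine (log2 -3.83, SE 0.32, adjusted p = 0.000292), a call kept with the pairs averaged (adjusted p = 0.0103), and 5.42-fold lower in liver than in spleen (-2.44, SE 0.32, adjusted p = 0.00134).

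The 2.63-fold higher *Gzmb* level in the small intestine than in spleen (log2 1.39, SE 0.37, adjusted p = 0.0345) was less secure. The call was lost with the pairs averaged (adjusted p = 0.145), in the control samples alone (0.183), in the LO samples alone (0.122) and without the second array of liver group 2 (0.0511). The difference stayed positive in each of these fits. Whether the probe also binds RNA of related granzymes was not tested, as probe sequences were not used here.

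The other genes of the T cell receptor complex and its signalling chain were lower outside the spleen as well. Of 22 listed genes 11 were tested, and all 11 were called lower in liver than in spleen, with a median log2 difference of -3.89. Against spleen, 10 were called lower in the small intestine, with a median of -2.94. The 3 with the largest differences in liver were *Cd3g*, the gamma chain of CD3, 81.8-fold lower; *Sit1*, an adaptor that dampens receptor signals, 41.9-fold lower; and *Lat*, the membrane scaffold of the signalling complex, 39.9-fold lower. *Lat* was well above background in only 4 of its liver channels. For the small intestine, *Sit1* was 33.0-fold lower, *Trat1*, which stabilises the receptor at the surface, at least 5.40-fold lower and *Lat* 12.1-fold lower.

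*Cd3g* stood out from that list in the small intestine. Its mean log2 level was 13.92 in spleen, 13.68 in the small intestine and 7.57 in liver, and the difference of -0.25 (SE 0.26) between small intestine and spleen was not called and read 0.25 under 75th percentile scaling. It was 69.0-fold lower in liver than in the small intestine, where *Lat* was 3.29-fold lower and *Zap70*, the kinase that binds the phosphorylated CD3 chains, 2.58-fold lower. For *Cd3d*, another chain of the same complex, that comparison gave 0.01 on the log2 scale. Of the 11 genes 4 were called lower in liver than in the small intestine, with a median of -0.77 beside -0.003 over all probes. The fit of averaged pairs called 2, and *Zap70* was not (adjusted p = 0.0760). Against spleen all 11 in liver and 10 in the small intestine were called in that fit too.

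Genes of T cell homing, subsets and costimulation were split between the tissues. Of 16 tested, 9 were called lower in liver than in spleen (median -2.46) and none higher. *Il21r*, the interleukin 21 receptor, was 58.1-fold lower, and *Lef1*, a transcription factor of naive T cells, at least 7.02-fold lower. Only 3 liver channels of *Il21r* were well above background, so its fold in liver rests in part on background. Against spleen, 8 were lower in the small intestine (median -2.31), with *Il21r* 24.3-fold lower. With the pairs averaged 8 were called lower in liver and 6 in the small intestine.

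The homing gene called higher in the small intestine than in spleen was *Itgae*, which encodes the integrin alpha E that binds E-cadherin of epithelial cells. It was well above background in all 4 small intestine channels and in no channel of spleen or liver. *Itgae* was at least 5.42-fold higher in the small intestine than in spleen (adjusted p = 0.0108), and it was called in 20 of 20 settings, with the pairs averaged as well (adjusted p = 0.0280).  Between liver and small intestine 3 genes of this list were called higher in liver and 4 lower, or 2 and 3 with the pairs averaged. Among them were *Itgae*, at least 2.94-fold lower, *Tnfrsf9*, the costimulatory receptor 4-1BB, 8.35-fold higher, and *Thy1*, a surface glycoprotein of rat thymocytes and recent thymic emigrants, at least 1.78-fold lower in liver.

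The cytotoxic and NK cell genes, which are shared between killer T cells and NK cells, were mostly lower outside the spleen. Of 24 tested, 18 were called lower and 2 higher in liver than in spleen (median -2.99). *Ctsw*, a protease of killer cells, was at least 20.3-fold lower, the NK receptor chain *Klrd1* at least 16.9-fold lower and the granzyme *Gzmk* 18.1-fold lower. The 2 genes called higher, chosen for naming after their values were seen, were the granzyme *Gzmc* (log2 1.80, SE 0.25) and *Ctsc* (0.93, SE 0.23), the lysosomal protease that activates granzymes and is also made outside lymphocytes. With the pairs averaged 18 were called lower and *Gzmc* higher (adjusted p = 0.0369), while *Ctsc* was not called (0.138).

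Against spleen, 15 of the 24 were called lower in the small intestine and 3 higher (median -2.26). *Gzmk* was 84.1-fold lower and the Fc receptor *Fcgr3a*, carried by NK cells and macrophages, 30.6-fold lower, while the granzyme *Gzmf* was at least 7.40-fold higher. The other 2 called higher were both granzymes, *Gzmc* (log2 3.69, SE 0.29) and *Gzma* (1.17, SE 0.34), named after their values were seen. Of these 3, *Gzmc* kept its call with the pairs averaged (adjusted p = 0.0254), whereas *Gzmf* (0.0911) and *Gzma* (0.179) did not, and 9 genes were called lower. Between liver and small intestine 10 were called lower in liver and 3 higher, with *Ctsw* at least 4.05-fold, *Gzmf* at least 4.00-fold and *Klrd1* at least 2.30-fold lower in liver. With the pairs averaged these counts were 4 and 1, and *Gzmf* was not called (adjusted p = 0.0623).

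**Figure D2:**
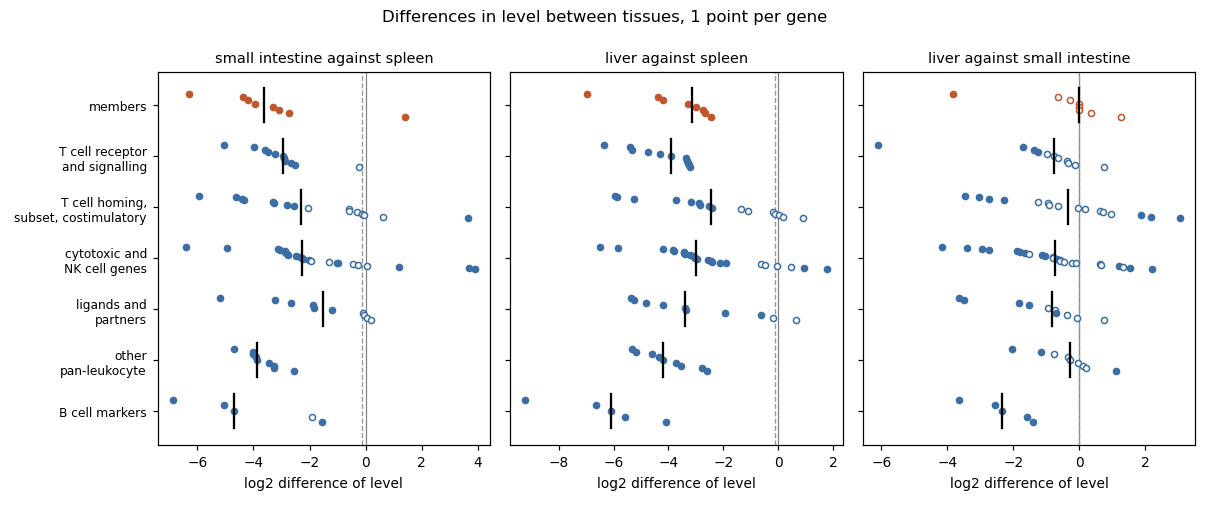
Log2 difference between tissues for each tested member (orange) and each tested gene of 6 lists (blue), 1 panel for each comparison, with filled points for genes called at an adjusted p below 0.05, a black bar at the median of a list and a dashed line at the median of all probes. Most points lie below 0 against spleen, and those above 0 in the small intestine include the granzyme *Gzmc* at 3.69, and *Itgae* and *Gzmf*, whose plotted values rest on spleen signals not well above background.

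Ligands and partners of the members were mostly lower than in spleen too. Of 10 tested, 8 were called lower in liver (median -3.38) and 6 in the small intestine (median -1.51). In liver the MHC class II genes *RT1-Da*, 41.2-fold lower, and *RT1-Bb*, 28.3-fold lower, led with *Cd72*, a B cell receptor described as a ligand of CD5, 38.2-fold lower. For *Cd72* only 1 liver channel was well above background, so background largely set its fold in liver. For the small intestine, *Cd72* was 36.9-fold, *Cd86*, the CD28 ligand, 9.48-fold and *Cd48*, the rodent CD2 ligand, 6.36-fold lower. With the pairs averaged 7 were called lower in liver and 2 in the small intestine, and *Cd48* was not called there (adjusted p = 0.0632). Liver lay below the small intestine in 5 of the 10, led by *RT1-Bb* (12.5-fold), *RT1-Da* (11.2-fold) and *Il15* (3.58-fold), a cytokine that sustains CD8 T cells and NK cells. The averaged pairs left 2 of these 5 calls, without *Il15* (adjusted p = 0.0603).

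*Ptprc*, the phosphatase CD45 of all white cells, gave no value. The 9 other pan-leukocyte genes tested were all called lower in liver (median -4.21) and in the small intestine (median -3.89) than in spleen. In liver the actin regulator *Coro1a* was 39.7-fold, the GTPase regulator *Arhgdib* 36.2-fold and the tetraspanin *Cd37* 24.0-fold lower. The small intestine had *Cd37* 26.1-fold, *Arhgdib* 16.2-fold and the GTPase *Rac2* 16.1-fold lower. Between liver and small intestine *Coro1a* (4.09-fold) and *Arhgdib* (2.24-fold) were called lower in liver and the signalling factor *Vav1* (2.16-fold) higher. In the stricter fit the calls of *Arhgdib* (adjusted p = 0.0965) and *Vav1* (0.104) between these tissues were lost, and all 9 genes kept theirs against spleen. Another scaling, to the 75th percentile of each channel, moved the median of all probes in liver against spleen from -0.10 to 0.19 and changed no member's direction in the comparisons with spleen.

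The genes whose pattern over the 8 pooled samples lay nearest to that of *Cd3d* were sought among 5812 named genes that were well above background in spleen. The nearest were *Tnfaip8l2*, *Ldhb*, *Cd40*, *Grap* and *Sipa1*, at root mean square distances of 0.09, 0.11, 0.13, 0.14 and 0.14 on the log2 scale after centring, where the median candidate lay at 1.49. None of the 5 was in the gene lists used here. *Cd40* stood at 4.82 in liver, where the lowest signals counted above background were 4.65 to 5.43. Among the members *Prf1* lay nearest at 0.33, followed by *Cd8a* at 0.39, *Cd4* at 0.42, *Cd5* at 0.50 and *Cd8b* at 0.61, and *Cd2* at 1.57 and *Gzmb* at 1.85 lay farthest. Outside the spleen *Cd2* and *Cd4* had no channel well above background and *Cd5* had 1. The distances of these members therefore rest on background signals there. The points share tissues and arrays, so the distances are a description and were not tested.

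The liver groups differed for some members, and since each is 1 pair of pools no test of that difference was made. *Cd8b* was 1.61 higher in group 2 than in group 1 in the control samples and 1.30 higher in the LO samples on the log2 scale. Its 4 channel values in group 1 ran from 6.54 to 7.11 and those in group 2 from 8.00 to 8.50, with no overlap. Of 16326 probes bright in all liver channels, 0.472% lay at least as far apart between the groups. *Cd3d* was 0.59 higher in group 2, again with no overlap between channels, a distance that 15.0% of bright probes reached.

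**Figure D3:**
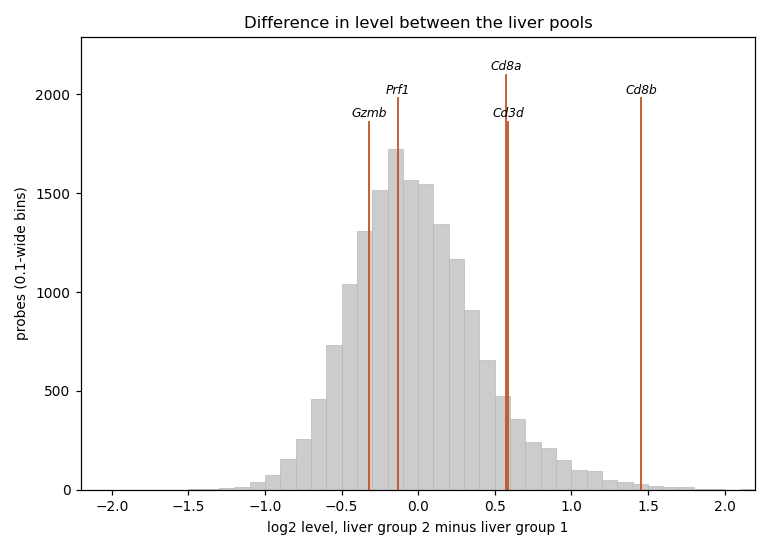
Log2 level in liver group 2 minus that in liver group 1 averaged over control and LO, as lines for 5 members over a histogram of the same difference for the 16326 bright probes. *Cd8b* lies at 1.46, *Cd3d* at 0.59 and *Cd8a* at 0.58, and *Prf1* and *Gzmb* lie below 0 at -0.13 and -0.32.

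The remaining members stayed closer between the liver groups. *Cd8a* was 0.58 higher in group 2, with overlapping channels, while *Gzmb* was 0.32 lower and *Prf1* 0.13 lower. Since *Cd8b* alone moved by more than 1 on the log2 scale, its difference from spleen depended on the liver group read, at -3.40 with group 1 alone and -1.94 with group 2 alone.

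The comparison of LO with control addressed whether dosing altered these genes in any tissue. None of the 8 members tested was called in the small intestine, spleen or liver, and limma called 0% of the 30620 probes in each. At an unadjusted p below 0.05 there were 1203 probes (3.93%) in the small intestine, 1305 (4.26%) in spleen and 1777 (5.80%) in liver, and none of the members was among them. Over all the alternative fits no member reached an adjusted p below 0.355, and the lowest unadjusted p was 0.0376, for *Cd4* in liver with liver group 2 alone, while with normexp background correction 33, 106 and 145 probes of the whole array were called in the 3 tissues. The fit rested on 4 pool averages with 1 residual degree of freedom, the difference between the liver groups. Spleen and small intestine are 1 average each, so their standard errors, intervals and p-values take the spread from liver and from the prior of limma, and they hold no spread of those tissues themselves.

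The smallest intervals belonged to *Cd3d*. Its log2 ratio of LO to control was 0.02 and -0.10 on the spleen arrays, 0.16 and -0.04 on the small intestine arrays, and 0.09, -0.06, 0.14 and -0.10 on the liver arrays. Values of both signs occurred in each tissue, and each of the 4 pairs had its higher value on the array with LO in Cy5. The mean was 0.02 in liver (95% interval -0.18 to 0.21), -0.04 in spleen (-0.32 to 0.23) and 0.06 in the small intestine (-0.21 to 0.33).

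Among the coreceptors, *Cd8a* had mean log2 ratios of -0.04 in the small intestine, -0.02 in spleen and 0.07 in liver. *Cd8b* had 0.10, with both small intestine arrays above 0 at 0.03 and 0.17, then -0.03 in spleen and 0.05 in liver. The 95% interval of *Cd8b* ran from -0.68 to 0.61 in spleen and from -0.54 to 0.74 in the small intestine, and its width came from the liver groups, whose *Cd8b* ratios were 0.21 and -0.10. *Cd4* stood at 0.12 in spleen, where it was measured, with 0.26 and -0.02 on its arrays.

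The dim members gave the largest ratios and the widest intervals. *Cd5* had a mean of 0.42 in the small intestine (95% interval -0.39 to 1.22), with both arrays above 0 at 0.31 and 0.53 and 1 of 4 channels above background. *Cd2* had -0.56 there (-1.82 to 0.71), with no channel above background, and 0.33 in liver. That liver value averages 0.65 in group 1 with ratios of exactly 1 on both arrays of group 2. In spleen, where both were bright, *Cd2* had -0.04 and *Cd5* -0.01. *Cd28* had ratios of exactly 1 throughout, the value the scanner software gives where neither channel exceeds background, and such ratios carry no measurement.

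*Gzmb* was the member whose spleen arrays both lay below 0, at -0.14 and -0.20, with a mean of -0.17 (SE 0.095, 95% interval -0.54 to 0.21, unadjusted p = 0.207 in limma, all with the spread taken from liver). On the small intestine arrays it stood at 0.24 and -0.12, and on the liver arrays at -0.09, 0.17, 0.43 and -0.09. *Prf1* had means of -0.01 in the small intestine, -0.03 in spleen and -0.05 in liver. In spleen the hepatocyte markers stood higher with LO in 8 of 10 genes, with a median log2 ratio of 0.49. None of these markers was called in limma, whose spread for them came from liver. There they were bright, with *Ttr* at a mean log2 level of 17.13 and *Fgb* at 17.29, beside 5.00 and 5.55 in spleen. The fit therefore cannot tell how the spleen ratios compare with the spread of such dim signals. Of the 10, 5 were well above background in all spleen channels and 2 in none. All 3 erythroid markers tested stood between 0.23 and 0.35. The mean log2 level of the hepatocyte markers in spleen was 4.80 in the control and 5.14 with LO, and their part in the lymphocyte ratios of the spleen was not tested.

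**Figure D4:**
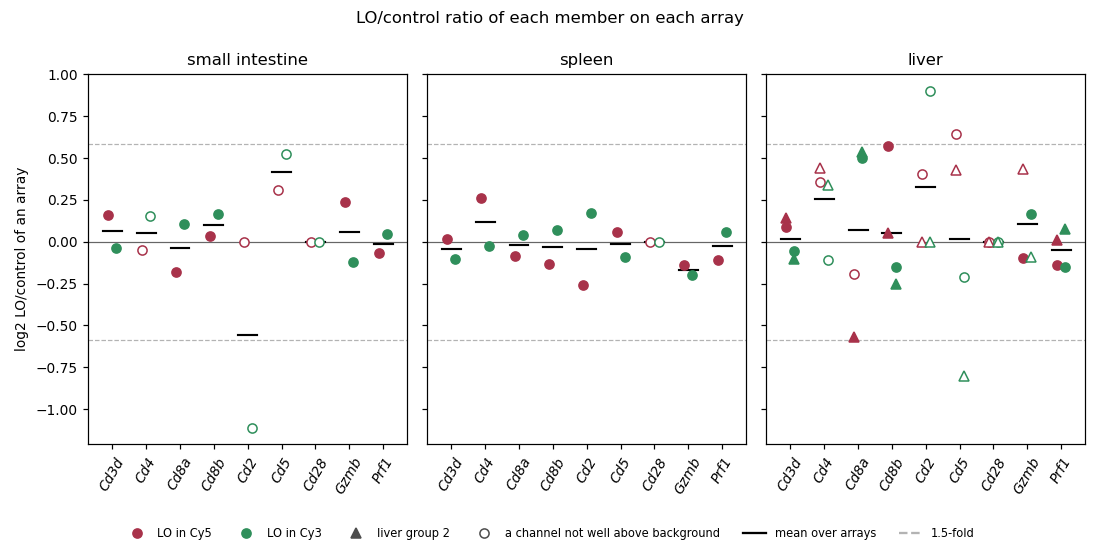
Log2 ratio of LO to control on each of the 8 arrays for the members, 1 panel for each tissue, with a bar at the mean over arrays, dashed lines at 1.5-fold, colour for the dye that carried LO, triangles for liver group 2 and open points where a channel was not well above background. The 4 points beyond 1.5-fold are open ones, and filled points stay between -0.57 and 0.57.

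The members' directions were mixed across tissues. In the small intestine 5 of 8 means were above 0 and 3 below, in spleen 1 above and 7 below, and in liver 7 above and 1 below, beside 50.0, 46.5 and 48.4% of all probes above 0. The median over the members was 0.06, -0.03 and 0.06 in the same order. The liver values include *Cd2*, *Cd4* and *Cd5*, which had no liver channel well above background. For *Cd2* they also include the ratios of exactly 1 in group 2, which carry no measurement. Over the 3 members well above background in all liver channels the median was 0.02. Tests of the difference of the LO effect between tissues called none of the members in any of the 3 pairs of tissues, and 0% of all probes, with 1112 (3.63%), 1454 (4.75%) and 1378 (4.50%) probes at an unadjusted p below 0.05 and no member among them.

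The dye weighed on the liver ratios of several members. Averaged over the 4 liver arrays, the log2 ratio of Cy5 to Cy3 was -0.45 for *Cd8a*, 0.52 for *Cd5* and 0.26 for *Cd8b*, and each had the same sign on all 4 arrays whichever sample carried Cy5. *Cd5* had no liver channel well above background, so its value is a ratio of background signals. For *Cd3d* the ratio was 0.10, again with the same sign on 4 of 4 arrays. These shifts cancel in the mean of a dye-swapped pair, so the ratios of LO to control given here do not include them, whereas any 1 liver array does.

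**Figure D5:**
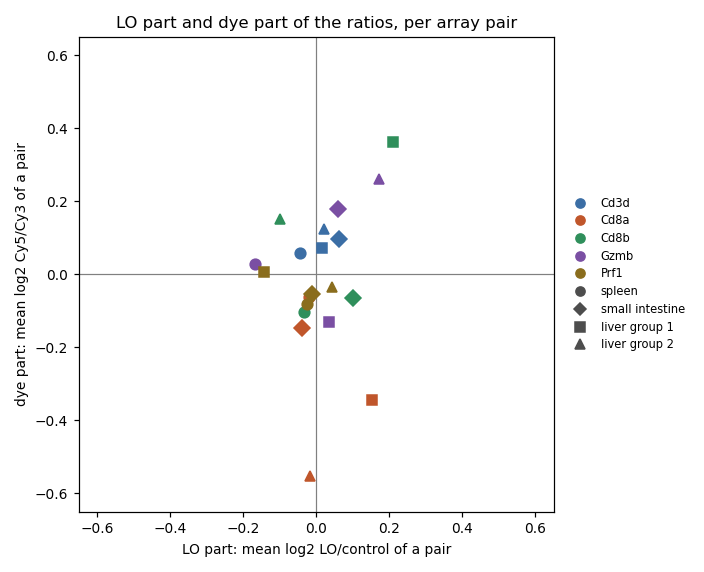
Dye part (mean log2 Cy5 to Cy3 ratio of a swapped pair) against the LO part (mean log2 ratio of LO to control of the pair) for *Cd3d*, *Cd8a*, *Cd8b*, *Gzmb* and *Prf1*, 1 point for each gene and array pair. The liver points of *Cd8a* lie low on the dye axis, where their mean is -0.45, while the points lie between -0.17 and 0.21 on the LO axis.

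A rule after the cut-offs of the study's methods was also applied: a ratio of at least 1.5 on one dye orientation and at most 0.75 on the other, with an error model p below 0.01, on every array of a tissue. It asks for both arrays in spleen and small intestine and for all 4 in liver, so it is stricter in liver, and how the study joined its liver arrays was not given in the sources used here. None of the 9 members with a probe passed in any tissue, beside 9 features (0.0208%) in the small intestine, 7 (0.0161%) in spleen and 4 (0.00923%) in liver. Without the p threshold 309 (0.713%), 239 (0.551%) and 20 features (0.0461%) passed, and again no member did. Of the 72 member ratios, 43 had both channels well above background, and these ran from -0.57 to 0.57 on the log2 scale with none beyond 1.5-fold. The smallest error model p of a member was 0.0532, for *Cd8b* on the first array of liver group 1.

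None of the listed genes around the members was called for LO in any tissue. At an unadjusted p below 0.05 in limma, the 5 lymphocyte and leukocyte lists held *Lef1* in the small intestine and, among the genes named here, *Klrg1* and *Klrb1b* in liver. In the T cell receptor list the small intestine had 8 genes above 0 and 3 below, spleen 3 and 8, and liver 2 and 9. The largest ratios there were *Trat1* at -0.38 (SE 0.31) and *Cd247*, the zeta chain, at 0.21 (SE 0.07) in the small intestine, *Trat1* at -0.12 and *Skap1*, an adaptor, at -0.09 in spleen, and *Skap1* at 0.22 and the kinase *Fyn* at -0.20 in liver. *Trat1* in the small intestine and *Skap1* in liver were not well above background in any channel. Medians of the list were 0.09, -0.03 and -0.05.

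The cytotoxic list leaned to opposite sides in the small intestine and spleen, and this difference was not tested over the list. In the small intestine 21 of 24 genes were above 0, with a median of 0.08 and with *Gzmk* at 0.27 (SE 0.16) and *Ifng*, encoding interferon gamma, at 0.26 (SE 0.10). In spleen 20 of 24 were below 0, with a median of -0.06 and with *Ifng* at -0.34 (SE 0.10) and *Gzma* at -0.13 (SE 0.07). In liver 10 were above 0 and 14 below, with the inhibitory NK receptors *Klrg1* at -0.50 (SE 0.09) and *Klrb1b* at -0.47 (SE 0.06), neither of them well above background in any liver channel. All genes of the list were read on the same 2 arrays for a tissue, so their shared side is not repeated evidence.

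Among the homing and costimulation genes, ratios were *Lef1* at -0.50 and *Il2ra*, the interleukin 2 receptor alpha chain, at -0.45 in the small intestine, *Itgae* at -0.21 and *Il2ra* at -0.11 in spleen, and *Itgae* at -0.39 in liver. Of these, *Lef1* in the small intestine and *Itgae* in spleen and liver were not well above background in any channel. Of the ligands, *Cd86* stood at -0.29 and *Calr*, a chaperone of MHC class I, at -0.14 in the small intestine, *RT1-Bb* at 0.07 and *Cd48* at -0.07 in spleen, and *Cd86* at -0.40 and *RT1-Da* at -0.18 in liver, where *Cd86* was not well above background in any channel. The pan-leukocyte genes lay between -0.22 and 0.31, with the integrin *Itgal* at -0.22 and *Vav1* at 0.06 in the small intestine, *Cd37* at 0.08 and *Arhgdib* at -0.06 in spleen, and *Itgal* at 0.31 and *Lcp1*, an actin bundler, at -0.21 in liver.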

How the data were processed

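The members, the gene lists and the tests were chosen with earlier results of these data known. Cy3 and Cy5 labelled RNA was read on Agilent 4x44K rat arrays, and the authors extracted the images with Agilent Feature Extraction 11.0.1.1, which corrected background and dye. The deposited scanner files hold, for each feature, a log10 ratio of red over green with an error model p-value, the processed signal intensity of each channel, and marks for signals well above background. The deposited value table was equal to the log10 ratio of the processed signals for all 43379 features (tolerance 0.0001). It was used to check the files only, and arrays and groups came from the labels.

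Log ratios were turned to log2 of LO over control, 34 features with a non-uniform spot were dropped and outlier spots were set to missing. A probe was tested where 2 arrays or more had 1 channel or both well above background (30620 of 40979 probes). For LO, the 2 arrays of a pair were averaged, and the 4 averages were fitted with limma 3.58.1 in R 4.3.3 (lmFit, eBayes; 1 residual degree of freedom, prior 1.20). For tissues, log2 signals of the 2 channels were normalized between arrays with Aquantile and fitted with tissue and treatment as terms and the array pair as a random block (correlation 0.874). p-values were adjusted by Benjamini-Hochberg over all probes tested. A probe not well above background in any channel of a tissue gave a bound, the mean of the bright tissue against the higher, on each array, of the lowest signal counted above background and the signal of the probe. The p-value beside a bound is that of the fitted difference and not of the bound. Gene lists were joined through RefSeq accessions, and 8923 of 36958 identifiers had a symbol, so 111 of 167 listed genes had a probe and 106 were tested. A listed gene with several probes was read from its brightest one. All members are named, and for each lymphocyte and leukocyte list the 3 genes called with the largest differences, or the 2 largest where none was called, except that some genes of the homing list are not reported here. Other cell type lists are given by counts. Same-numbered arrays deviated together (correlations 0.554 to 0.805), and the number marks the dye orientation. Alternatives were other background corrections, scaling, filters, blocks and leaving out each array. Each fit was tested on simulated data. The number of arrays limits the precision.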

Additional observations from a re-analysis of the deposited data

Results flagged for a closer look

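The log2 level of *Cd2* in the LO sample of liver group 1 was 3.03, apart from the other 3 liver samples, which stood at 2.37, 2.26 and 2.36. Its gap to the nearest of them was 0.846 of the whole range, above the critical value of Dixon's test for 4 values, which chance passes in about 1 in 20 groups. The probe was not well above background on any liver array.

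The log2 ratio of LO to control of *Prf1* moved to opposite sides in the liver groups, with a difference of 0.19 (group 2 minus group 1). Both arrays of group 1 lay below 0, at -0.14 and -0.15, and both arrays of group 2 lay above 0, at 0.01 and 0.08. The error model p-values of these ratios ran from 0.470 to 0.967. The difference between the groups was not tested, and the share of all probes split in this way was not counted.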

How the results depend on the processing

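For LO against control no member was called under any alternative, leaving out each array included (0 to 0 members in each tissue), although the probes called on the whole array rose from 0 to 33 in the small intestine, 106 in spleen and 145 in liver with normexp background correction. With the arrays as replicates and the replicate number as a block, 0 members were called in each tissue. The tissue comparisons with spleen kept their member counts within 8 to 8 in liver and 7 to 8 in the small intestine when each array was left out, and the comparison of liver with small intestine stayed at 1. That last count depended on the handling of the liver groups. It was 2 with normexp, 2 with each dye's values entered with the replicate block, 4 with the liver groups averaged and no random block, and 6 with liver group 1 alone or liver group 2 alone. With group 1 alone the difference of *Cd3d* between liver and small intestine turned to -0.29, and with group 2 alone that of *Cd8a* turned to 0.27. The fits that use 1 liver group leave out the spread between the groups and were chosen after seeing the data, as was the fit with the pairs averaged.

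The number of probes called between tissues moved more. It went from 15103 to between 9565 and 26812 in liver against spleen, from 8541 to between 3115 and 24288 in the small intestine against spleen, and from 12423 to between 6195 and 26105 in liver against small intestine, lowest with the pairs averaged and highest with the liver groups averaged. For single members, 756 alternative values kept their direction and side of the threshold. Another 45 moved, and these include turns of direction in values that were not called. Without the first small intestine array, the ratio of LO to control there went from 0.06 to -0.04 for *Cd3d* and from 0.06 to -0.12 for *Gzmb*. A further 13 values passed the threshold newly, 8 no longer passed it, and 2 more turned direction. *Cd2*, *Cd4* and *Cd5* outside the spleen are limited by background. The pools hold no spread between animals.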

Other observations

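Some listed genes that were no members also differed between the liver groups, and they were picked for naming after their values were seen. *Sit1* was 1.28 higher in group 2 than in group 1 on the log2 scale, *Ctla4*, an inhibitory receptor of activated T cells, 1.37 higher, and *Ccr7*, the receptor that guides naive T cells to lymph nodes, 1.06 higher in the control and 1.14 higher in the LO samples. For *Icos*, a costimulatory receptor, the same difference was -1.09, and for *Cd40lg*, the CD40 ligand, which was not well above background in any liver channel, it was -1.47 in the control and -1.53 in the LO samples. *Ctla4* was well above background in 6 liver channels and *Icos* in 4. Of all probes tested, 13.4% lay more than 1 apart between the groups, and of those bright in all liver channels 2.68%. The lists as wholes were split, with 5 of 11 T cell receptor genes, 8 of 16 homing genes and 12 of 24 cytotoxic genes higher in group 2 and medians of -0.01, 0.02 and -0.06. The hepatocyte markers lay between -0.20 and 0.10, with a median of 0.003. No test was made, as each group is 1 pair of pools.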
